A study of Saccharomyces cerevisiae with 6 samples.

Results

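Tandem intergenic sequence lies between 2 genes transcribed in the same direction, so that one side of it is the 3′ end of the upstream gene and the other the promoter of the downstream gene. Chromatin endogenous cleavage with sequencing (ChEC-seq) of Rec8 gave 1582 bins of 20 bp in such sequence on the chromosome arms, of 14224 bins in the authors' deposited table. They were found by position alone, on build R64. The middle of the bin had to lie between 2 annotated genes of the same strand, more than 500 bp from a tRNA gene, more than 20 kb from a chromosome end and more than 50 kb from the centromere. Chromosomes I, III and VI and 1 stretch of 28.1 kb on XV with negative bins were left out, which leaves 13 chromosomes.

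The table compares 3 WT with 3 ctf19-9A diploid cultures, each from a colony of its own zygote, held in meiotic prophase I. The WT cultures had the genotype Rec8-3xFLAG-MNase ndt80-delta, and the mutant cultures Rec8-3xFLAG-MNase ctf19-9A ndt80-delta, so the tagged Rec8 and the loss of NDT80 were shared by both groups. Meiosis was induced by 16 h in YP acetate and 4.5 h in 1% potassium acetate, and cleavage by 2 mM CaCl2 for 5 min. The strain background is given as X and Y. No value for a single culture was available, so depth is unknown, and no spread between cultures can be given.

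Rec8 is the meiotic form of the kleisin, the subunit that closes the cohesin ring around sister chromatids. In yeast, cohesin is known to be loaded most strongly at centromeres, where the kinetochore protein Ctf19 helps to recruit the loader, and to collect on the arms near the 3′ ends of genes and between convergent genes. In the fusion used here, micrococcal nuclease cuts DNA next to Rec8 once calcium is added, so cleavage marks where Rec8 sits and where the DNA beside it can be cut.

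Neither the labels nor the headers say which genotype is the numerator of the fold change. A ratio of ctf19-9A to WT is likely, on the basis that the mutant is the condition the design asks about. With the sign turned, the direction of every log2 fold change given here swaps. Which bins are listed, their places and their shares stay the same. All 1582 tandem bins were positive. Leaving out the stretch of XV fixed this, because its 4 tandem bins were all negative, with log2 fold changes from -0.61 to -0.57 in the authors' deposited table. The sign of the members is therefore a description and no test was made of it.

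Every listed bin had passed the authors' false discovery rate of 0.05. Positive bins were 5.58% of the 154927 bins that the authors' adjustment implies were tested, assuming a Benjamini-Hochberg adjustment. Of all arm sequence under the same limits, 459331 bins, 1.47% was listed and positive. In tandem sequence the share was 2.87%, 1582 of 55136 bins. At a false discovery rate under 0.01, 334 tandem bins were left, 0.606% of tandem sequence, against 0.262% of arm sequence. Tandem sequence thus made up 12.0% of arm sequence and 23.4% of the 6753 listed arm bins. Which bins were tested is not given, so these shares are of all sequence and not of tested bins.

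The change was small in most tandem bins. The median log2 fold change was 0.61, a factor of 1.52, with quartiles of 0.54 and 0.69 and a range of 0.36 to 1.23 in the authors' deposited table. The standard error (SE) implied by each p-value had a median of 0.19 and quartiles of 0.17 and 0.20. The shrunken log2 fold change of the authors' deposited table had a median of 0.44. Across these bins the log2 fold change and its SE were correlated (Pearson's r = 0.74 over 1582 bins, which share the same 6 cultures), as a threshold on p ties one to the other. The largest values therefore came from bins with large errors as well. Only 5 bins exceeded 1, of which 4 lay before SNR19 and 1 before BUD9.

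Members gathered in short clusters within a minority of the gaps. Of 2296 tandem gaps with arm sequence, 368 (16.0%) held a listed bin. Joining bins of a gap that lay at most 100 bp apart gave 397 regions, with a median of 3 bins, and 28 gaps held more than 1 region. A single bin made up 101 regions, and these had a median highest log2 fold change of 0.62. The 31 regions of 10 or more bins held 404 bins, 25.5% of all, and their median highest value was 0.73. A false discovery rate under 0.01 was reached in 124 regions.

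The region with the highest values lay between POP1, which encodes a protein subunit of RNase P and RNase MRP, and SNR19, the gene of the U1 small nuclear RNA, on XIV (230781 to 230880). Going from POP1 toward SNR19, its 5 bins had log2 fold changes of 0.78, 1.04, 1.21, 1.23 and 1.18 in the authors' deposited table. The values rose away from POP1 but were slightly lower again in the last listed bin, which stood 118.5 bp before SNR19 in the 395 bp gap. The highest bin had an SE of 0.23 and an adjusted p of 2.1e-05 in the authors' deposited table. The lone bin between KSS1, a mitogen-activated protein kinase gene, and BUD9, a bud-site gene, on VII (576721 to 576740) had 1.03 in the authors' deposited table, with an SE of 0.24 and an adjusted p of 0.000798. It stood 226.5 bp past KSS1 with no other listed bin within 100 bp in that gap.

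Other regions with high values were peaks of several bins. Between SFH5, for a phosphatidylinositol transfer protein, and ROQ1, for a regulator of the ubiquitin ligase Ubr1, on X (146121 to 146260), 7 bins ran 0.57, 0.78, 0.92, 0.94, 0.93, 0.85 and 0.80 in the authors' deposited table. The top of this peak lay 146.5 bp past SFH5, near the middle of a 314 bp gap, with an SE of 0.19 and an adjusted p of 0.0001 in the authors' deposited table. Between PAM1 and BTT1, the latter for a subunit of the nascent polypeptide-associated complex, on IV (963261 to 963420), 8 bins ran 0.64, 0.86, 0.96, 0.96, 0.88, 0.77, 0.64 and 0.62 in the authors' deposited table. That peak reached up to the start of BTT1, its last bin being centred 1.5 bp before the gene. Between CFT1, for a subunit of the mRNA cleavage and polyadenylation factor, and GPI11, a gene of GPI anchor synthesis, on IV (1067541 to 1067680), the highest of 5 bins had 0.94 (SE 0.20) in the authors' deposited table. The step from 0.79 to 0.47 between neighbouring bins there was the steepest fall within the peak.

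**Figure D1:**
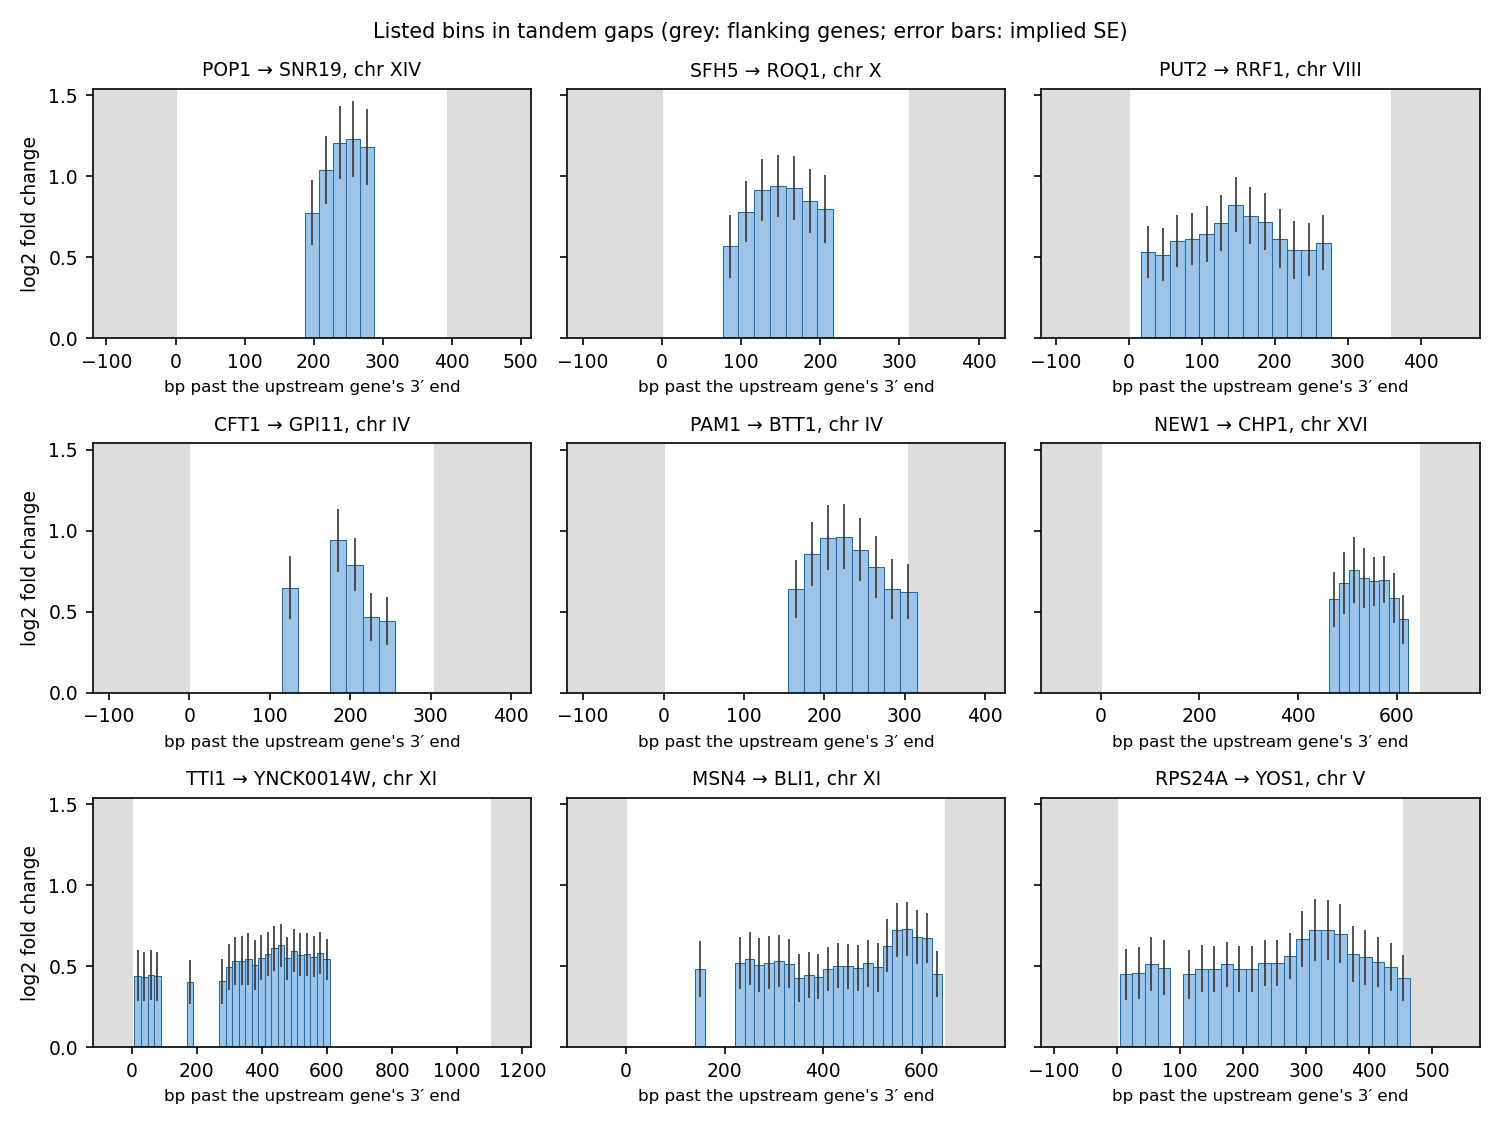
Log2 fold change (vertical axis) of the listed 20 bp bins of 1 region in each of 9 tandem gaps, with error bars of 1 implied SE. The horizontal axis is distance in bp past the 3′ end of the upstream gene, with both flanking genes in grey. A place with no bar held no bin of the region shown. Between PAM1 and BTT1, a listed bin 4.5 bp past PAM1 (0.48) lies outside that region and is not drawn. Bins within the limit around the tRNA gene YNCK0014W are not drawn either, listed or not. The 6 gaps with the smallest adjusted p are shown first and 3 gaps with 22 bins last; the peak before SNR19 reaches 1.23, whereas the 3 long regions stay below 0.74.

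Further regions among the 10 highest had peaks from 0.94 to 0.96. In the authors' deposited table these were 0.96 between AVO2, for a subunit of the TORC2 kinase complex, and NAT4, for a histone N-terminal acetyltransferase, on XIII. The authors' deposited table gave 0.95 between SIT4, for a protein phosphatase, and NPC2, for a sterol-binding protein, on IV. It was 0.94 both between YDL242W and YDL241W on IV and between MSC3 and CCC1, for a vacuolar iron transporter, on XII, in the authors' deposited table. A region of 9 bins on XII (451201 to 451460), between the rDNA spacer feature ETS2-1 and the tRNA gene YNCL0009C, had 0.96 in the authors' deposited table. The rDNA is a repeated array whose reads cannot be placed with certainty, and this region began 124.5 bp from it. Whether repeats play a part in that value was not tested.

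Several regions with small adjusted p had moderate values and many bins. Between PUT2, a proline degradation gene, and RRF1, a mitochondrial ribosome recycling factor gene, on VIII, all 13 bins from 183721 to 183980 were listed. They ran from 0.54 beside PUT2 to 0.83 at 146.5 bp and to 0.59 at 266.5 bp in the authors' deposited table, with an adjusted p of 0.000123 at the top. Between CPR3, a mitochondrial cyclophilin gene, and BET5, a gene of the TRAPP transport complex, on XIII, 15 bins covered 95.5% of a 314 bp gap and peaked at 0.75 in the authors' deposited table. Between MTF2 and FAD1, for FAD synthetase, on IV, 15 bins covered 83.8% of the gap with a highest value of 0.78 in the authors' deposited table. Between NEW1 and CHP1 on XVI, 8 bins in the last part of a 648 bp gap peaked at 0.76 in the authors' deposited table. Of the 10 regions with the smallest adjusted p, that between CVM1 and HLJ1, for an endoplasmic reticulum co-chaperone, on XIII was the shortest, with 3 bins and a highest value of 0.90 in the authors' deposited table.

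The longest regions had 22 bins each, with medians of 0.51, 0.51 and 0.54, below the 0.61 of all tandem bins. Between the ribosomal protein gene RPS24A and YOS1, a gene of transport from the endoplasmic reticulum, on V (307201 to 307660), bins covered 96.5% of the gap with log2 fold changes from 0.43 to 0.73 in the authors' deposited table. Between MSN4, for a stress transcription factor, and BLI1 on XI (325261 to 325760), values ranged from 0.43 to 0.73 in the authors' deposited table and were highest near BLI1. Between TTI1, a gene of the complex that matures phosphatidylinositol kinase-related kinases, and the tRNA gene YNCK0014W on XI, values ranged from 0.40 to 0.63 in the authors' deposited table. That region ends at 379180, where the limit of 500 bp from the tRNA gene ends it. The lowest member of all (0.36, SE 0.13) was the bin nearest to MRPL38, a mitochondrial ribosomal protein gene, in a region of 12 bins that starts 49.5 bp past NNK1 on XI, in the authors' deposited table.

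The remaining long regions, each the one with most bins on its chromosome or among the 10 longest, were of intermediate size. On IX, 19 bins between SEC6, for a subunit of the exocyst, and RPS24B peaked at 0.87 in the authors' deposited table. On XI, 19 bins between PRS1, a gene of phosphoribosyl pyrophosphate synthesis, and RPL17A peaked at 0.77 in the authors' deposited table. On XIV, the authors' deposited table gave highest values of 0.76 for 14 bins between FKH2, for a forkhead transcription factor, and RPL16B, and 0.75 for 13 bins between YNR065C and YNR064C. On X, 12 bins between SSY5 and FAR1, for a cell-cycle inhibitor of the mating response, peaked at 0.64 in the authors' deposited table. On XVI, 12 bins between YAH1, for mitochondrial ferredoxin, and VIK1, for a partner of the kinesin Kar3, peaked at 0.65 in the authors' deposited table. On XII, 12 bins between KAP95, for an importin, and CIS1 reached only 0.57 in the authors' deposited table. On XV, 10 bins between YOR192C-C and THI72 peaked at 0.68, and on II, 9 bins between VBA2 and SUL1, for a sulphate permease, at 0.65 in the authors' deposited table.

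Bins lay in the interior of the gaps and were rare next to either gene. With each gap divided into steps of 10% of its length from the upstream gene, 1.06% of bins were listed in the first step, 4.09% between 50% and 60%, and 1.13% in the last. The median member lay 233 bp past the upstream 3′ end and 202.5 bp before the downstream gene. Measured from the upstream 3′ end, the share listed was 1.43% up to 50 bp and 4.20% from 150 to 200 bp. Measured back from the downstream gene, it was 1.64% up to 50 bp and 5.08% from 100 to 150 bp. Protein-coding lengths in the annotation hold no untranslated regions in most genes, since 96.4% are multiples of 3, so these distances start at coding ends.

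No lean toward the 3′ end of the upstream gene was detected. Per chromosome, 47.8% of members (SD 7.12, n = 13 chromosomes) were nearer to the upstream 3′ end than to the downstream 5′ end, against the 50 percent that even placement gives. The share was above 50 percent on 6 and below it on 7 chromosomes, from 33.3% on IV to 56.6% on VIII (exact two-sided sign-flip permutation p = 0.299, adjusted over 6 tests p = 0.299). Both sides had like values, with medians of 0.60 for 741 bins on the 3′ side and 0.61 for 841 on the 5′ side. Chromosomes share the same 6 cultures, so this test and those below measure the spread between chromosomes and not between cultures.

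**Figure D2:**
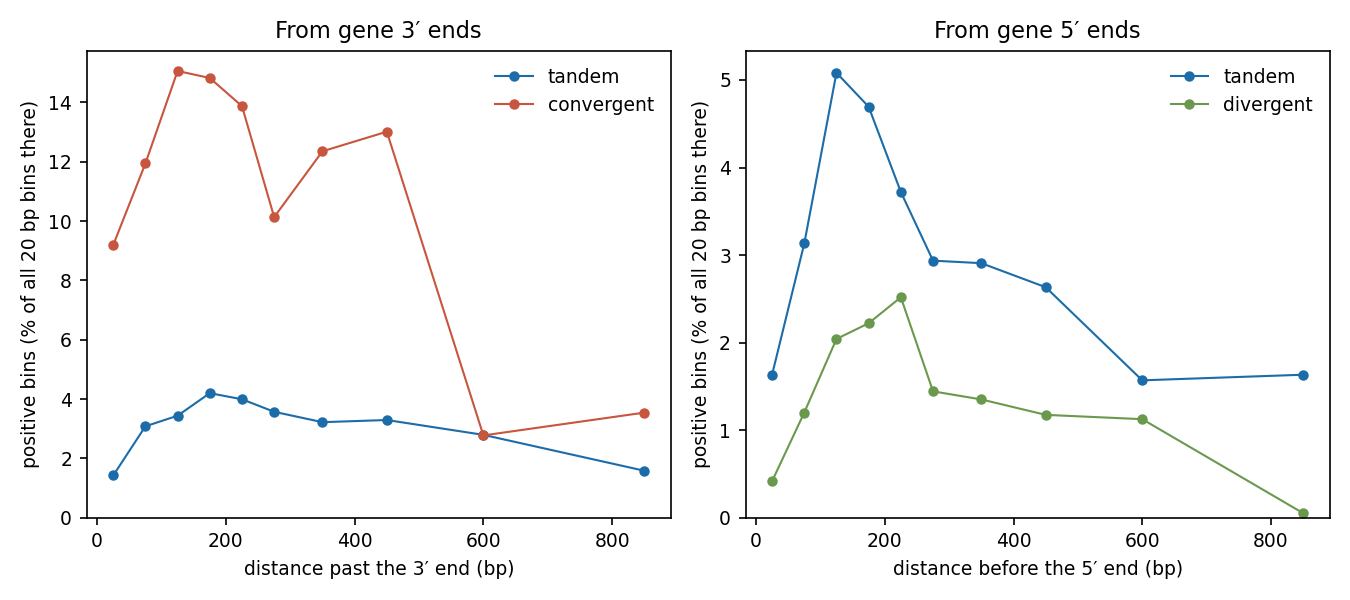
Share of 20 bp bins that were listed and positive (vertical axis, percent) by distance in bp past gene 3′ ends (left panel, tandem and convergent gaps) and before gene 5′ ends (right panel, tandem and divergent gaps); for convergent and divergent gaps the nearer gene counts. Tandem bins were most often listed 100 to 150 bp before the downstream gene (5.08%), and convergent ones exceeded them at most distances past a 3′ end.

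Most gaps with members had no listed bin in the adjoining gene ends, although more of them had one than gaps without members. Of the 368 gaps with members, 18 (4.89%) also had a listed bin in the last 200 bp of the upstream gene and 45 (12.2%) in the first 200 bp of the downstream gene. In 312 gaps (84.8%) neither flank had one. Among the 1928 gaps without members the figures were lower, 11 (0.571%) upstream and 21 (1.09%) downstream. Whether coding sequence beside the gaps was tested is not given, so a flank with none may be untested.

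Tandem sequence was listed less often than convergent and more often than divergent sequence. Per chromosome the share averaged 2.99% for tandem (SD 0.93, n = 13), 11.3% for convergent (SD 2.69) and 1.29% for divergent gaps (SD 0.68). The tandem share was 3.85 times lower than the convergent one, lower on 13 of 13 chromosomes, with a mean log2 ratio of -1.94 (SD 0.54, exact two-sided sign-flip permutation p = 0.000244, adjusted p = 0.000732). That p is the smallest that 13 chromosomes can give. It was 2.48 times higher than the divergent one, higher on 11 of 13 chromosomes (mean log2 ratio 1.31, SD 0.93, exact permutation p = 0.000977, adjusted p = 0.00195). The exceptions were II and IV, where the tandem and divergent shares differed little, 1.47% and 1.49% on II and 2.41% and 2.54% on IV. Counted by gap the classes lay closer, with a listed bin in 16.0% of tandem, 24.9% of convergent and 10.1% of divergent gaps. The median gap lengths also differed, 392 bp for tandem, 213 bp for convergent and 505 bp for divergent gaps. Because the tested bins are not known, these comparisons cannot tell a class with fewer changed bins from one with fewer tested bins.

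In the log2 fold change of the listed bins the order was different. The median log2 fold change of tandem bins exceeded that of convergent bins by 0.07 per chromosome (SD 0.03, n = 13), on 13 of 13 chromosomes (exact sign-flip permutation p = 0.000244, adjusted p = 0.000732). It was 0.02 below that of divergent bins (mean difference -0.024, SD 0.03, lower on 9 of 13 chromosomes, exact permutation p = 0.0161, adjusted p = 0.0242). On the shrunken scale this second difference no longer passed (exact permutation p = 0.131). The implied SE moved the same way, with medians of 0.16 for convergent, 0.19 for tandem and 0.20 for divergent bins. Only bins past the authors' threshold enter on any side, and a threshold on p ties the log2 fold change to its SE. The 2 comparisons therefore cannot tell a difference in size from one in SE, and the part of the SE was not tested.

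**Figure D3:**
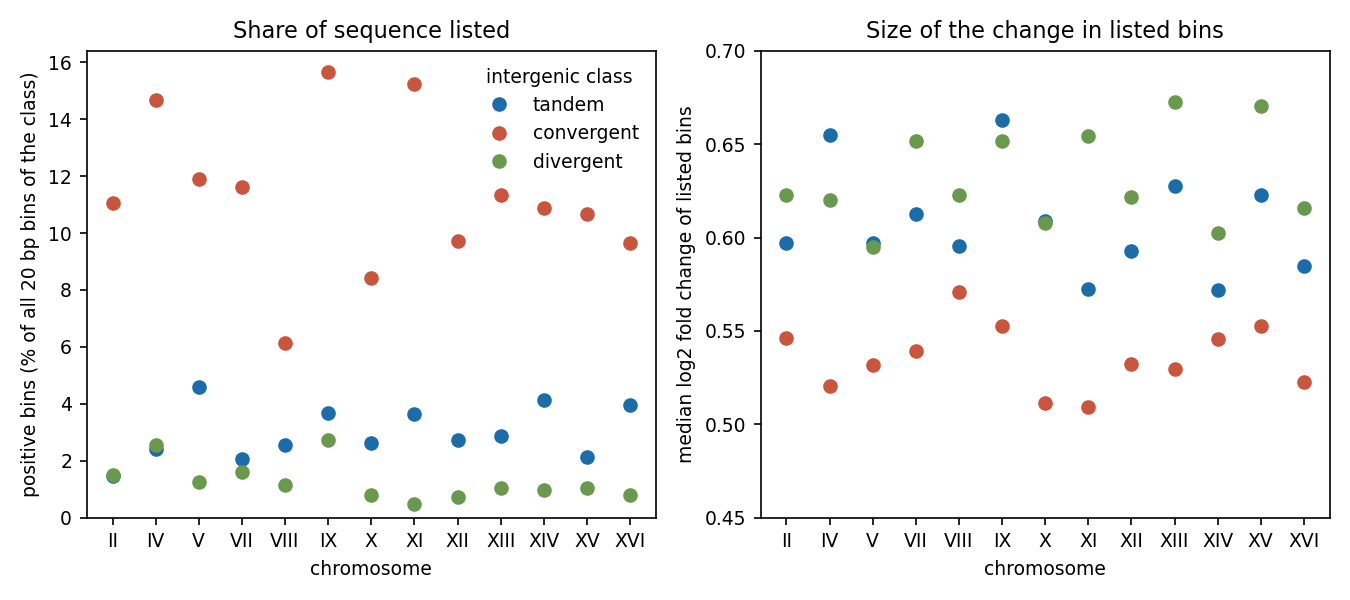
Left, share of 20 bp bins of tandem, convergent and divergent arm sequence that were listed and positive (percent) on each of 13 chromosomes; right, median log2 fold change of the listed bins, on an axis from 0.45 to 0.70. Tandem points lie below the convergent ones on every chromosome in the left panel and above them in the right panel.

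The share of tandem sequence that was listed ranged widely over chromosomes. V had the highest share (4.60%, 147 bins in 28 of 114 gaps), followed by XIV (4.14%), XVI (3.97%), IX (3.68%) and XI (3.63%). II had the lowest (1.47%, 53 bins in 18 of 166 gaps), next to VII (2.07%) and XV (2.12%). Chromosome IV had the most members, 198 bins in 48 gaps. The median log2 fold change varied little, from 0.57 on XIV to 0.66 on IX, with an SD of 0.03 over 13 chromosomes.

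Distance from the centromere within the arms went with small differences in share. It was 3.23% from 50 to 100 kb, 2.94% from 100 to 200 kb, 2.84% from 200 to 400 kb and 2.66% beyond 400 kb. Gaps on the Watson strand had 2.71% listed and those on the Crick strand 3.04%. Where transcription runs away from the centromere the share was 2.55%, and where it runs toward it 3.18%. This last difference did not pass a test over chromosomes (mean log2 ratio -0.39, SD 0.96, lower on 9 of 13, exact sign-flip permutation p = 0.155, adjusted p = 0.185).

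Listed bins took up less of the sequence in long gaps, which was described and not tested. The share went from 4.26% in gaps of up to 200 bp and 4.04% in those of 200 to 300 bp to 1.55% at 1000 to 2000 bp and 1.21% above 2000 bp, with 3.63% at 500 to 700 bp against 2.67% at 400 to 500 bp. Counted by gap, 12.2% of those up to 200 bp held a member and 24.2% of the 33 above 2000 bp. The median length was 403 bp for gaps with and 391 bp for gaps without a member.

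Tandem gaps on the 5′ side of ribosomal protein genes held listed bins more often than those on their 3′ side. Of 49 tandem arm gaps on the 5′ side of a ribosomal protein gene 14 (28.6%) held a member, against 5 of 58 (8.62%) on the 3′ side and 16.0% of all gaps. The gaps on the 5′ side held 116 bins with a median log2 fold change of 0.67, and 9.37% of their sequence was listed. Those on the 3′ side held 39 bins, 22 of them in the gap between RPS24A and YOS1 on V. On the 3′ side 2.42% of the sequence was listed, against 2.87% of all tandem sequence. The gaps on the 5′ side were longer than most, with a median of 502 bp against 392 bp. Each is also the 3′ side of the gene upstream, and their bins lay a median of 254.5 bp before the ribosomal protein gene. The bin given below for RPL31B stood 115.5 bp past YLR406C-A and 335.5 bp before RPL31B. That for RPL35A stood 584.5 bp past ARF1 and 213.5 bp before RPL35A. The differences of these shares were not tested. The bin with the smallest adjusted p had 0.90 (SE 0.21, adjusted p 0.00122) before RPL31B on XII, 0.86 before RPS24B on IX and 0.85 before RPL35A on IV in the authors' deposited table. The paralogue RPL35B on IV had 0.81 in its own gap in the authors' deposited table. In the authors' deposited table RPL12A on V and RPL16B on XIV had 0.72 each, and the others ranged from 0.63 before RPS24A to 0.79 before RPL1A. On the 3′ side, the authors' deposited table gave 0.72 behind RPS24B, and the gap between RPS9B and RPL21A on II, with 0.72 in 2 bins, counts on both sides.

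Glycolytic genes had few tandem arm gaps. Of 7 gaps on their 5′ side 4 held members, and 1 of 6 on their 3′ side, against 16.0% of all gaps, and the difference was not tested. The gaps on the 5′ side were long, with a median of 630 bp against 392 bp, and their bins lay a median of 402.5 bp before the gene. In the gap before TDH3 they stood 98.5 to 298.5 bp past PDX1, nearer to that gene's 3′ end. Before TDH3, for the main glyceraldehyde-3-phosphate dehydrogenase, and behind PDX1 on VII, 11 bins peaked at 0.92, with an SE of 0.22 and an adjusted p of 0.00125, in the authors' deposited table. Before TPI1, for triose phosphate isomerase, on IV, 15 bins had 0.62 at the smallest adjusted p, 0.00793 with an SE of 0.17, in the authors' deposited table. Of these bins, 12 stood 125.5 to 345.5 bp past DET1 in a 583 bp gap, and 3 stood 58.5 to 98.5 bp before TPI1. FBA1, for aldolase, on XI and HXK2, for hexokinase, on VII had 0.61 and 0.56 in the authors' deposited table. Behind PFK2, for phosphofructokinase, on XIII, 11 bins before INP1 had 0.85 with an SE of 0.22 and an adjusted p of 0.00519 in the authors' deposited table.

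Cohesin, meiotic and kinetochore genes had few tandem arm gaps, too few to set their counts apart from the 16.0% of all gaps, and no difference was tested. Among the cohesin and loader genes, 0 of 2 gaps on the 5′ side and 1 of 3 on the 3′ side held bins, the latter behind PDS5, a cohesin regulator, on XIII with 0.47 in the authors' deposited table (SE 0.16, adjusted p 0.0427). Among the meiotic axis and recombination genes, 0 of 3 and 1 of 5 held bins, the latter behind MEI4, needed for meiotic double-strand breaks, on V with 0.86 in the authors' deposited table (SE 0.23, adjusted p 0.00728). Of the kinetochore genes, 1 of 5 gaps on the 5′ side did, before MCM21, whose product binds Ctf19, on IV (0.64, SE 0.19, in the authors' deposited table), and 0 of 3 on the 3′ side. Acetate and gluconeogenesis genes had 0 of 4 on either side, and histone genes 0 of 1 on the 3′ side and no tandem arm gap on the 5′ side.

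**Figure D4:**
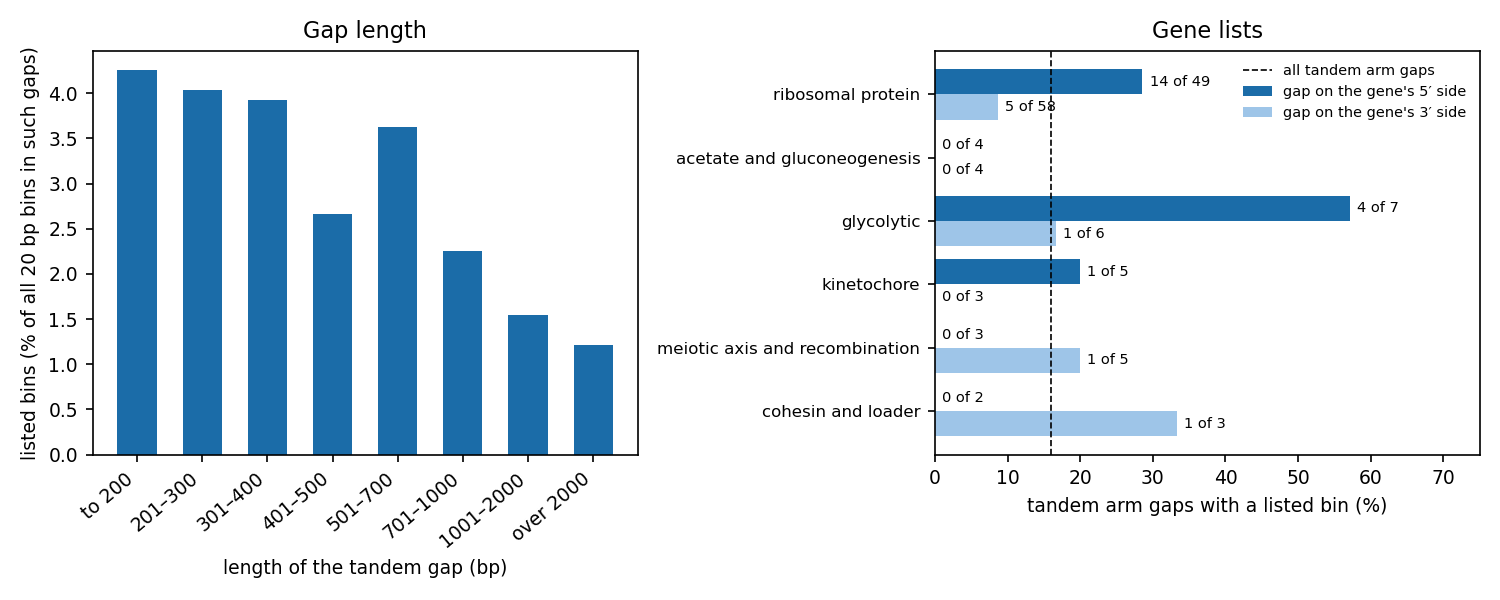
Left, share of 20 bp bins listed (percent) by length of the tandem gap; right, share of tandem arm gaps with a listed bin (percent) on the 5′ or 3′ side of genes of 6 lists, with the counts beside the bars and all 2296 gaps (16.0%) as a dashed line. The share of sequence listed is highest in short gaps, and the bars of the ribosomal protein and glycolytic lists are longer on the 5′ side (14 of 49 and 4 of 7).

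The bins on either side of each limit of the rule, 1 a side, are given as a description. The member nearest to a centromere, between PRP9 and ARP2 on IV at 50.4 kb, had 0.62, and the bin just outside, between TSA1 and YOX1 on XIII at 47.4 kb, had 0.54 in the authors' deposited table. At chromosome ends the values were 0.58 just inside, between YDL242W and YDL241W on IV, and 0.69 just outside, between SEA4 and PKC1 on II, in the authors' deposited table. At the limit around tRNA genes they were 0.62 at 507.5 bp, between CPP3 and ARO3 on IV, and 0.46 at 491.5 bp, between MET17 and YNCL0038W on XII, in the authors' deposited table. The member with the largest false discovery rate (0.05, log2 fold change 0.67) lay between UTP10 and GZF3 on X in the authors' deposited table.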

How the data were processed

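Rec8 ChEC-seq was compared in 3 WT and 3 ctf19-9A cultures. Per the submitters' processing notes, the tools were DESeq2, deepTools 3.4.3, Bowtie2 2.5.0 and FastQC 0.11.9, with builds R64 and sacCer3. Filters on reads or bins were not given in the sources used here. Per the file headers, the deposited values are a p-value, a false discovery rate, a log2 fold change and a shrunken log2 fold change per bin, all made by the authors.

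Python 3.11.15, pandas 2.3.3 and scipy 1.17.1 were used. Bins were joined to 6431 genes of the RefSeq R64 table, with strand read from the systematic name; 1 gene without a strand letter bounds gaps of unknown class. The SE is the log2 fold change over the normal quantile that its two-sided p gives. Tests were exact sign-flip permutations over 13 chromosomes, adjusted by Benjamini-Hochberg over 6, and the code was tested on simulated data. Named are the 10 regions highest in value, smallest in adjusted p and longest, the lowest member, the longest region per chromosome, and list genes. Members, lists and tests were chosen with earlier results of these data known. Planned base composition and sequence printing needed a genome and were left out.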

Additional observations from a re-analysis of the deposited data

How the results depend on the processing

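No paired analysis was possible because the table holds no column for a single culture, which also prevented leaving out replicates. Of 1582 members, 334 had a false discovery rate under 0.01 and 823 a log2 fold change of at least 0.6, fewer by construction. Under the other 6 choices of limits and gap borders the count ran from 1335 to 1573. The median log2 fold change of 0.61 became 0.44 on the shrunken scale, 0.65 with 1 value per region and 0.74 at the stricter threshold, which the latter settings bring about by construction. The share nearer to the upstream 3′ end, at -2.16 percentage points from 50 percent, turned to 3.03 at a false discovery rate under 0.01 (exact permutation p = 0.649), and passed under no setting. The tandem minus divergent log2 difference was -0.0062 on the shrunken scale (exact permutation p = 0.131), and the cause was not tested. The tandem share stayed below the convergent and above the divergent one, past the threshold, under the stricter rate, with protein-coding borders only and, chosen after seeing the data, in gaps over 200 and up to 700 bp long (log2 ratios -1.90 and 1.55). With each chromosome left out in turn the first log2 ratio ran from -2.001 to -1.86 and the second from 1.18 to 1.43. The depth of the cultures, unknown here, limits which bins could pass.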
